A study of Mus musculus with 4 samples.

Results

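The genes described are 10 receptor and regulator genes of early blood progenitors, measured in mouse pro-B cells: the surface receptor and antigen genes Kit, Cd34 and Cd93, and the transcription regulator genes Sox4, Myb, Erg, Lmo2, Mef2c, Hhex and Meis1. They were chosen by symbol from the 24411 rows of the count table, all 10 were found, and all 10 passed the filter on low counts that left 13507 genes. The knockout group was 2 Tnpo3fl/fl mb1Cre mice (numbers 51 and 63), and the control group was 2 Tnpo3+/+ mb1Cre mice (numbers 55 and 69), all of the C57BL/6 strain, with no age given. Both groups carried mb1Cre, a Cre recombinase made from the Cd79a locus, which is switched on as cells enter the B lineage, so deletion of the floxed Tnpo3 alleles is limited to cells that have used this locus. The cells were sorted from bone marrow for B220, CD43 and HSA, which is CD24. Each library came from 1 mouse.

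KIT is the receptor tyrosine kinase for stem cell factor, and CD34 is a sialomucin of stem and progenitor cells and of endothelium. CD93, the antigen of the AA4.1 antibody, marks early B cell precursors as well as myeloid and endothelial cells. SOX4 and MYB are DNA-binding factors that early B lymphopoiesis requires in mice. ERG, an ETS factor, and LMO2, a LIM-only bridging protein, belong to the regulator set of blood stem cells. MEF2C acts in lymphoid progenitors and B cells, HHEX is a homeodomain protein needed for early lymphoid development, and MEIS1 is a TALE homeodomain partner of HOX proteins in stem cells.

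Total counts were between 26211372 and 40647384 per library. Tnpo3, the nuclear import receptor gene that was targeted, was at 79.7 and 68.8 CPM (reads per 1000000 of the TMM-scaled library) in knockouts 51 and 63, against 159 and 148 CPM in controls 55 and 69. The log2 fold change of Tnpo3 came to -1.05 ± 0.14 (SE; edgeR, adjusted p of 0.0108), and without knockout 63 to -0.94 (adjusted p of 0.0603). The count is of the whole gene and not of the floxed part alone. Knockout 51 and control 69 were male and knockout 63 and control 55 female, as read from Xist and Ddx3y. Pro-B marker genes were detected in every library, with a summed level of 3413 and 2687 CPM in the knockouts, against 8430.4 and 10372 CPM in the controls.

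The promoters of Myb and Sox4, the members whose profiles over the 4 libraries were nearest to each other, and of Cd34, which moved the other way, are shown from RefSeq on GRCm38.p6, from 250 bases before to 50 bases after the annotated start. Capitals mark the MYB core AACNG on either strand, searched with overlaps counted. The windows are chr10:21160935-21161234 on the minus strand for Myb, chr13:28953650-28953949 on the minus strand for Sox4 and chr1:194938571-194938870 on the plus strand for Cd34.
Myb: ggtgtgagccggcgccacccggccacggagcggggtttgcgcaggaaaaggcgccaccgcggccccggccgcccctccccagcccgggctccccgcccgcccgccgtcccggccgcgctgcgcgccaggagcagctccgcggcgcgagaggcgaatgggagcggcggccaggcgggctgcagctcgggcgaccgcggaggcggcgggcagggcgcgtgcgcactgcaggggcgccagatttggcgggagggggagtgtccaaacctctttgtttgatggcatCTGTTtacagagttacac
Sox4: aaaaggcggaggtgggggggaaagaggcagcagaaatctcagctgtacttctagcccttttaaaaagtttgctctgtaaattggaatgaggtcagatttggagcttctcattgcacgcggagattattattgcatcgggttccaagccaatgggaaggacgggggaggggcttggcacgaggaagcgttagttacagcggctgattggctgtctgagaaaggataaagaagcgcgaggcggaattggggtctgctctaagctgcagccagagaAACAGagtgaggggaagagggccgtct
Cd34: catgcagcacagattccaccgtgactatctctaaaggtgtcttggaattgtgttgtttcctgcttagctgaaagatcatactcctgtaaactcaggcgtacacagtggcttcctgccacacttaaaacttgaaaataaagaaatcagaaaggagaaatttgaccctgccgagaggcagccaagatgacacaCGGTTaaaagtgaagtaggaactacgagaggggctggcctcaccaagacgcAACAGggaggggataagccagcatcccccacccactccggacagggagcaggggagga
The core was found once in each of the Myb and Sox4 windows and at 2 places in the Cd34 window, and 80.3% of all 32851 promoter windows of this length held it. The Myb window was 75% G or C with 40 CpG dinucleotides, more than in 96.1% of windows, whereas the Sox4 window held 12 and the Cd34 window 7, which is the median of all windows. None of the 3 windows held the letters TATAAA, found in 13.6% of windows, or the ETS letters CCGGAA, found in 14.9%. A match is a run of letters only. Promoter sequences were matched for 8 of the 10 genes, as 13 windows.

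The comparison asked how these genes differ between pro-B cells sorted from knockout and control marrow. Myb, Sox4 and Cd93 were lower in the knockouts, Cd34 and Lmo2 were higher, and Kit, Erg, Mef2c, Hhex and Meis1 did not pass the threshold, an adjusted p of 0.05 over all genes tested. Thus 5 of 10 members passed (2 higher and 3 lower), where 22.2% of all tested genes did (11.3% higher and 10.9% lower). The members were chosen with results of these data known, so this share is a description. Of the members, 5 were called with DESeq2 size factors in edgeR (22% of all genes), without scaling (22.4%), with a stricter filter (22.5%), with limma-voom (22.7%) and on the authors' normalized values by limma (13.1%). There were 6 called without a filter (19.9%), with DESeq2 (29.3%), without control 55 (19.9%), without control 69 (23%) and with sex as a block (32%), Erg being the sixth each time. Without knockout 51, 4 members were called (1 higher, as were 6.49% of all genes, and 3 lower, as were 5.11%, or 11.6% in all). Without knockout 63, 3 members were called (0 higher and 3 lower, where 5.33% and 3.78% of all genes were, or 9.11% in all). In such bulk samples, fewer cells of a type and less RNA per cell cannot be told apart.

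**Figure D1:**
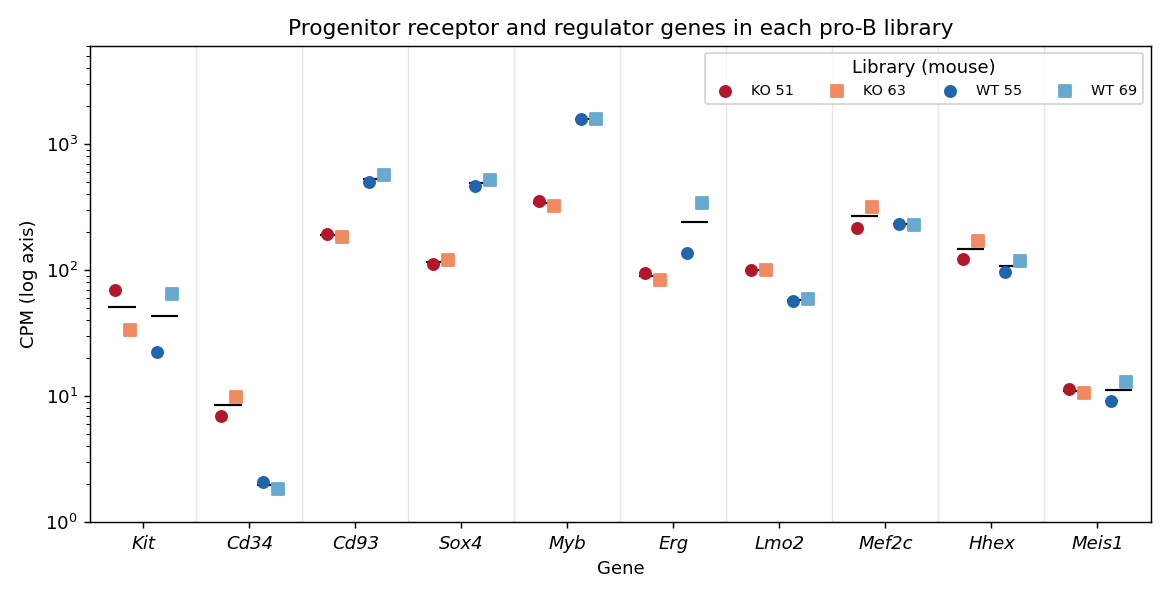
Level of each gene in each library, in CPM on a log axis. Red points are knockout mice, blue points control mice and black bars group means (n = 2 each). Myb, Sox4 and Cd93 lie lower in both knockouts than in both controls, Cd34 and Lmo2 lie higher, and the Kit points of the groups interleave.

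Among the receptors, Cd93 (GRCm38 chromosome 2, 148436640 to 148443563, minus strand) had 193 and 184 CPM in knockouts 51 and 63, against 496 and 568 CPM in controls 55 and 69. Both knockouts were below both controls, and the knockouts differed from each other by 1.04 times. In edgeR's quasi-likelihood test Cd93 had a log2 fold change of -1.5 ± 0.16 (SE, 95% interval -1.89 to -1.11, adjusted p of 0.00662). The drop was present in both sexes, with a log2 ratio of -1.43 for the female pair and -1.56 for the male pair.

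Cd34 (chromosome 1, 194938819 to 194961279, plus strand) moved the opposite way from a low level. It had 282 and 298 reads in knockouts 51 and 63, against 68 and 49 reads in controls 55 and 69, which is 6.98 and 9.89 CPM, against 2.08 and 1.84 CPM. The groups did not overlap. Cd34 rose by 2.10 ± 0.35 (SE) on the log2 scale, a fold change of 4.29, at an adjusted p of 0.0163 by edgeR. Without knockout 63 its log2 fold change was 1.83 and its adjusted p 0.0658. An antisense gene, Gm16897, overlaps its exons, and with no strand setting given the reads of the pair cannot be told apart.

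Kit (chromosome 5, 75574916 to 75656722, plus strand) varied more between mice of 1 genotype than between genotypes. Its level was 68.9 and 33.6 CPM in knockouts 51 and 63, against 22.5 and 64.5 CPM in controls 55 and 69. The higher library was 2.05 times the lower among the knockouts and 2.87 times the lower among the controls, and a control ratio at least that large was seen in 4.93% of all tested genes. The log2 fold change was 0.24 ± 0.57 (SE, 95% interval -1.18 to 1.66, adjusted p of 0.787 by edgeR), so neither a halving nor a doubling is outside the interval. Without control 69 it was 1.19 (adjusted p of 0.0711), whereas it was -0.30 without control 55 and -0.37 without knockout 51. The males, knockout 51 and control 69, were the libraries with the higher level, with a log2 ratio of 0.09 between them and of 0.58 between the females.

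Myb had the highest count of the 10 genes and the largest fitted difference. The gene (chromosome 10, 21124935 to 21160984, minus strand) was at 356 and 319.8 CPM in knockouts 51 and 63, against 1581 and 1591 CPM in controls 55 and 69. The knockout values were far below the control values, and the controls were within 1.01 times of each other. Its log2 fold change of -2.23 ± 0.18 (SE) is a 4.69-fold lower level, with an adjusted p of 0.00497 by edgeR, and 90.2% of tested genes had a smaller absolute fold change. Between the female mice the log2 ratio was -2.31, and between the male mice -2.16. The antisense gene Gm26577 overlaps Myb exons, so its reads could be counted with those of Myb.

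Sox4 (chromosome 13, 28948919 to 28953713, minus strand), a gene with a single exon, followed nearly the same profile. It was at 111 and 120.5 CPM in knockouts 51 and 63, against 468 and 519.8 CPM in controls 55 and 69. No knockout value came near a control value. Sox4 fell by 2.09 ± 0.15 (SE) on the log2 scale, a 4.26-fold lower level, with an adjusted p of 0.00468 by edgeR. The noncoding gene Gm26735 overlaps it on the opposite strand. Over 12 alternatives in processing, Myb, Sox4 and Cd93 each passed in all 12, with log2 fold changes of -2.31 to -2.15, -2.15 to -2.01 and -1.56 to -1.40.

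Lmo2 (chromosome 2, 103957986 to 103981878, plus strand) had the closest replicates of the genes that changed. It was at 101 and 100.3 CPM in knockouts 51 and 63, against 57.2 and 58.6 CPM in controls 55 and 69. The groups were separated, and mice of 1 genotype differed by at most 1.02 times. Lmo2 rose by 0.80 ± 0.12 (SE) on the log2 scale, a fold change of 1.74, with an adjusted p of 0.0146 by edgeR. Its size hardly moved with a knockout left out, but the adjusted p did, to 0.0746 without knockout 51 (log2 fold change 0.79) and 0.0865 without knockout 63 (0.81).

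Erg (chromosome 16, 95359169 to 95586593, minus strand) differed strongly between the 2 control mice. It was at 94.4 and 83.6 CPM in knockouts 51 and 63, against 136 and 342 CPM in controls 55 and 69. Both knockouts were below both controls, with control 69 well above the other libraries. The log2 fold change was -1.43 ± 0.43 (SE, 95% interval -2.49 to -0.36), and the adjusted p of 0.0671 by edgeR did not pass. Erg passed in 5 of 12 alternatives, among them DESeq2 (adjusted p of 0.00398) and sex of the mouse as a block (0.0195). DESeq2 called 29.3% of all tested genes and the sex block 32%, against 22.2% in the main fit. With 1 mouse of each sex per genotype, the block cannot tell sex from differences between single mice. With control 69 as the only control the fitted log2 value of Erg was -1.91, and with control 55 alone it was -0.62. These fits are among the 5, but each assumes that a lone control varies like the knockouts, which differed by 1.13 times. Passing there takes no account of the spread between the controls. A ratio between controls at least as large as the 2.51 of Erg was seen in 6.71% of tested genes.

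Mef2c, Hhex and Meis1 had no difference that passed the threshold. Mef2c (chromosome 13, 83504034 to 83667080, plus strand) was at 217 and 316 CPM in knockouts 51 and 63, against 232 and 229 CPM in controls 55 and 69, so that knockout 51 was below both controls and knockout 63 above them. Its log2 fold change was 0.21 ± 0.21 (SE, 95% interval -0.32 to 0.74, adjusted p of 0.511 by edgeR), and -0.09 without knockout 63. Hhex (chromosome 19, 37434810 to 37440731, plus strand) was at 123 and 169 CPM in knockouts 51 and 63, against 96.4 and 118 CPM in controls 55 and 69. The Hhex groups did not overlap, but knockout 51 was close to control 69. The log2 fold change of Hhex was 0.44 ± 0.20 (SE, 95% interval -0.07 to 0.95, adjusted p of 0.176 by edgeR), and the log2 ratio was 0.81 for the female pair and 0.06 for the male pair.

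Meis1 (chromosome 11, 18879817 to 19018985, minus strand) was the member nearest to no difference. It was at 11.4 and 10.6 CPM in knockouts 51 and 63, against 9.17 and 13 CPM in controls 55 and 69, with both knockouts between the controls. The fitted log2 fold change was -0.01 ± 0.27 (SE, 95% interval -0.69 to 0.67, adjusted p of 0.984 by edgeR), and its sign turned under 9 of the 12 alternatives. Of the genes tested, 1.3% had a smaller absolute fold change. Gm16140 on the opposite strand and Gm37818 on the same strand overlap its exons, so its reads could be shared with theirs.

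**Figure D2:**
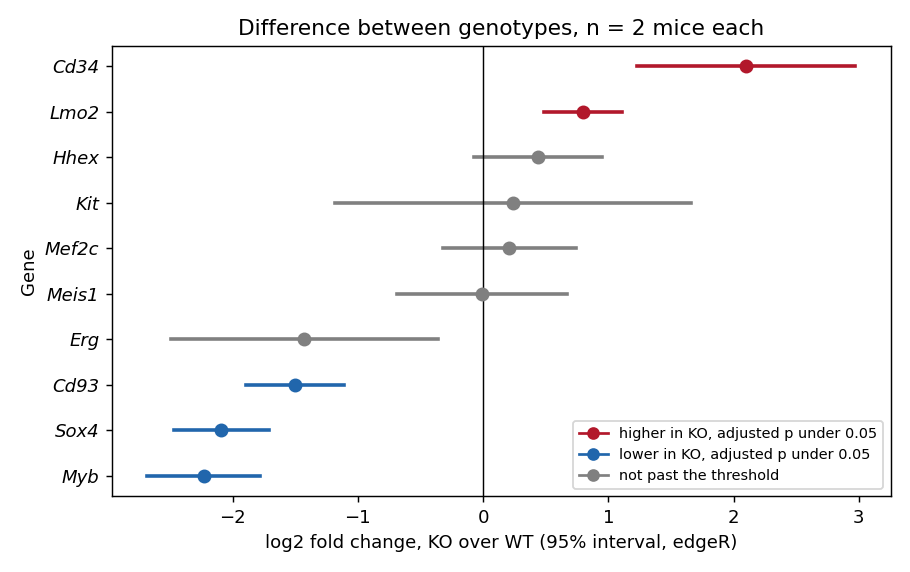
Log2 fold change of knockout over control for each gene, with the 95% interval of the edgeR fit. Points right of 0 are higher in the knockouts. Cd34 (2.10) and Lmo2 (0.80) passed as higher and Myb (-2.23), Sox4 (-2.09) and Cd93 (-1.5) as lower, while the Kit interval spans -1.18 to 1.66.

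The members did not move as 1 group. Their median log2 fold change was 0.10, against -0.02 over all tested genes, and the individual values spanned -2.23 to 2.10. The knockout and control values did not overlap for 7 members (3 higher and 4 lower), as was so for 67.5% of all tested genes (33% higher and 34.6% lower), so non-overlap with 2 mice a group is common in these libraries. The summed level of the 10 genes was 1282 and 1348 CPM in knockouts 51 and 63, against 3101 and 3505 CPM in controls 55 and 69. Most of that gap lay in Myb, Sox4 and Cd93, which summed to 659.7 and 625.0 CPM in the knockouts, against 2545 and 2679 CPM in the controls. The other 7 genes summed to 623 and 723 CPM in the knockouts, against 556 and 827 CPM in the controls, with the groups overlapping.

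Likeness of profiles was measured as the Euclidean distance between log2 CPM values over the 4 libraries, each gene centred on its own mean, and with 4 libraries it is a description only. Myb and Sox4 were the closest pair at 0.259, followed by Mef2c with Hhex at 0.339. Cd93 was at 0.611 from Sox4 and at 0.754 from Myb. The farthest pair was Cd34 and Myb, at 4.31. Among all tested genes, the profile nearest to Myb was that of Pde4b, a cyclic AMP phosphodiesterase gene, at 0.0427, followed by Dclk2 at 0.0911. Cd93 was nearest to Neil3, a DNA glycosylase gene, at 0.0452, and to 2610020H08Rik at 0.0955, and Sox4 to Siglece at 0.0818 and Ccdc125 at 0.143.

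For the members that were higher, the nearest profiles were those of Plekha7 (0.0404) and Kazn (0.059) to Cd34 and of Ttc7 (0.0297) and H2-M3 (0.0453) to Lmo2. Erg was nearest to C530008M17Rik (0.0632) and Odf3b (0.0915), and Kit to Parp12 (0.0763) and Klhl3 (0.166). Mef2c was nearest to Scoc (0.0306) and Epm2aip1 (0.0459), Hhex to Cmc4 (0.0403) and Tspyl3 (0.0843), and Meis1 to Vav3 (0.0231) and Acbd6 (0.0372). Kit had 2 genes within a distance of 0.2 and Erg had 4, whereas Meis1, whose profile is nearly flat, had 326.

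Per kilobase of exon, the order of the members differed between the genotypes. These levels are CPM over the exon length of the gene in GENCODE M21, given as mean ± SD (n = 2), and the annotation used for counting may differ. In the knockouts Lmo2 was highest (46.5 ± 0.320 CPM per kilobase), then Myb (37.8 ± 2.85), and these did not overlap. Hhex (28.8 ± 6.41), Cd93 (28.2 ± 0.878), Erg (25.7 ± 2.20) and Sox4 (24.2 ± 1.38) followed, with Hhex overlapping the other three. Mef2c (17 ± 4.47) and Kit (5.75 ± 2.80) came next, and Cd34 (1.16 ± 0.282) and Meis1 (1.05 ± 0.052) were lowest and overlapped.

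In the controls Myb stood first (178 ± 0.776 CPM per kilobase), then Sox4 (103 ± 7.68) and Cd93 (79.7 ± 7.63), and Erg (69.0 ± 42.0) overlapped the range of both Sox4 and Cd93. Lmo2 (26.7 ± 0.466), Hhex (21.2 ± 3.03) and Mef2c (14.7 ± 0.169) formed the middle of the order. Kit (4.88 ± 3.34), Meis1 (1.05 ± 0.257) and Cd34 (0.269 ± 0.023) were lowest, without overlap between neighbours. Per kilobase of the longest annotated transcript in place of all exons, Myb was first in both genotypes (91.5 in the knockouts and 429 in the controls), and Mef2c was the third in the knockouts (42.5).

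**Figure D3:**
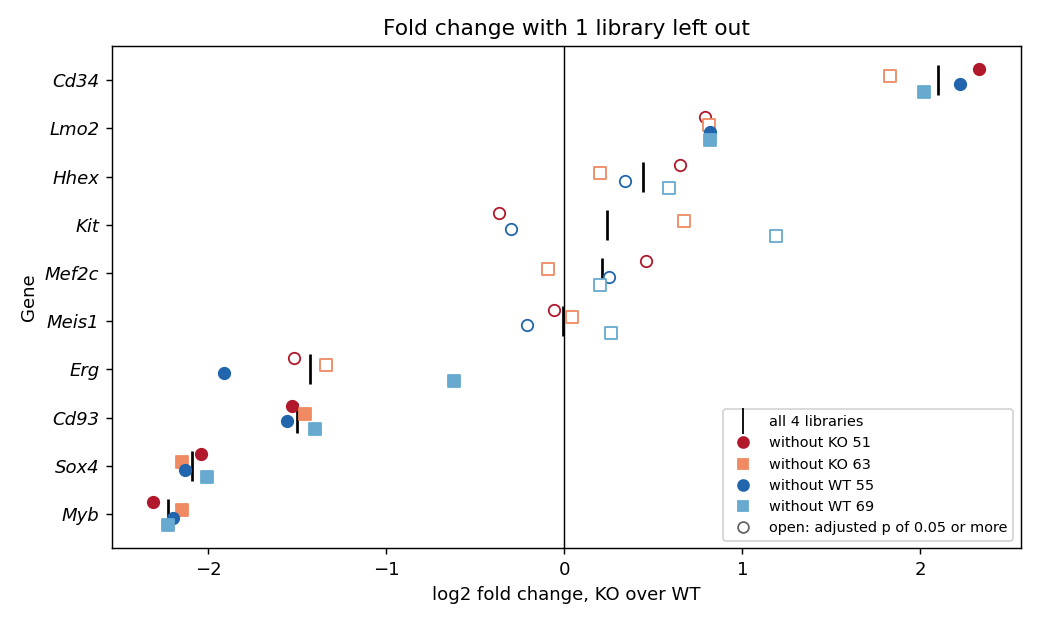
Log2 fold change of knockout over control with 1 library left out, for each gene. Black bars use all 4 libraries, filled points passed the threshold and open points did not. The points of Myb, Sox4, Cd93 and Lmo2 stay close to their bar, those of Kit lie on both sides of 0, and that of Erg is -0.62 without control 69.

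Genes that work with these members were taken from 8 lists of 133 genes, of which 120 were tested. Of these, 25 were higher and 25 lower in the knockouts (41.7%, against 22.2% of all tested genes), with a median log2 fold change of -0.17. Of these list genes 12 were lower without knockout 51, without knockout 63 and on the authors' normalized values, and 16 were higher without knockout 63. The lists were written with earlier results of these data known. Of 24 genes of KIT signalling, 5 rose and 2 fell, with a median log2 fold change of 0.08 beside -0.02 for all genes. Neither of the 2 that fell passed with either knockout left out or on the authors' values, while 4 were lower with either control left out, and 3 were higher without knockout 51 and on the authors' values. Fyn, a SRC-family kinase gene, was at 642 and 683 CPM in knockouts 51 and 63, against 133 and 132 CPM in controls 55 and 69 (log2 fold change 2.32 ± 0.15 SE, adjusted p of 0.00445 by edgeR). Fes, a cytoplasmic tyrosine kinase gene, rose by 1.74 ± 0.14, the adaptor gene Sh2b2 by 3.09 ± 0.34 and the docking protein gene Dok2 by 2.23 ± 0.44. Sh2b2 was at 3.68 without control 55, and Dok2 at 1.59 without knockout 51 (adjusted p of 0.0574). Kitl, which encodes the ligand and was named after its values were seen, had 41 and 72 reads in the knockouts, against 24 and 9 reads in the controls, and did not pass (adjusted p of 0.145).

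Of 13 tested cytokine receptor genes of progenitors, 4 rose and 3 fell, with a median of -0.01. Over all tested genes 11.3% rose and 10.9% fell. Fewer of the receptor genes were lower with either knockout left out, as was so over all genes. Csf2rb, the shared beta chain of several cytokine receptors, was at 236 and 299 CPM in knockouts 51 and 63, against 67.3 and 50.1 CPM in controls 55 and 69. Both knockouts were above both controls, as they were for Flt3, the progenitor and dendritic cell receptor gene, at 376 and 541 CPM against 39.8 and 27.1 CPM. Il6ra and Il6st, the subunits of the interleukin-6 receptor, rose by 1.92 ± 0.20 and 1.22 ± 0.17, and Il6st did not pass without knockout 63 (adjusted p of 0.0523). Of 13 tested surface antigen genes of progenitors, 6 rose and 4 fell, with a median of 0.68. Of these, 2 were lower without knockout 51, knockout 63 or control 55, and 3 were higher on the authors' values. Ly6a, which encodes SCA-1, rose by 3.98 ± 0.59. Ly6a was at 1106 and 346 CPM in knockouts 51 and 63, against 41 and 50.9 CPM in controls 55 and 69. Leaving out knockout 51 put Ly6a at a log2 fold change of 2.91, and leaving out knockout 63 at 4.59. Thbd, the thrombomodulin gene and a relative of Cd93, fell by 2.59 ± 0.23, and Prom1, which encodes CD133, by 4.8 ± 0.49.

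Partners of the LMO2 complex, in which LMO2 bridges GATA and basic helix-loop-helix factors, were lower in 4 and higher in 2 of 13 tested genes, with a median of -0.21. All tested genes were lower in 10.9% and higher in 11.3% of cases. The lower ones were 2 without knockout 51 and on the authors' values, and 1 was higher without knockout 51, knockout 63 or control 55. Tcf3, the E protein gene, was at 424 and 287 CPM in knockouts 51 and 63, against 992 and 1229 CPM in controls 55 and 69. The related Tcf4 was at 758 and 1018 CPM in the knockouts, against 257 and 218 CPM in the controls, so these E protein genes moved in opposite directions. Gata2, a stem and mast cell factor gene, had no read in either knockout, against 48 and 70 reads in the controls, which is at least 46.8-fold lower, taking 3 counts over both knockouts as the floor. Lmo4, a LIM-only relative, fell by 1.57 ± 0.36, but missed the threshold without knockout 51 (adjusted p of 0.106) and on the authors' values (0.0945).

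Of 17 ETS factor genes related to Erg, 5 fell and 12 did not pass, with a median of -0.35. In this fit 10.9% of all tested genes fell and 11.3% rose. On the authors' values 2 were lower. Fewer were also lower with either knockout or control 55 left out, as was so over all genes. Elk4, Ets2, Ets1 and Spi1 had log2 fold changes of -1.23 ± 0.17, -2.58 ± 0.43, -0.96 ± 0.18 and -0.59 ± 0.13. Ets2 was at -1.91 without control 55. Elk4 did not pass without knockout 63 (adjusted p of 0.0517), and neither Ets1 (0.0589 and 0.113) nor Spi1 (0.152 and 0.211) passed without knockout 51 or without knockout 63. Spi1 also missed without control 55 (0.0835). Of 14 tested HOX and TALE factor genes, 4 rose and 2 fell, with a median of -0.28. Fewer of these were higher with either knockout or control 55 left out, and fewer lower with either knockout left out. The lower genes were 4 with sex as a block and 1 on the authors' values. These settings called 32% and 13.1% of all tested genes in either direction, against 22.2% in the main fit. Hoxa9, a HOX partner of MEIS1, was at 17.8 and 19.6 CPM in knockouts 51 and 63, against 5.41 and 6.65 CPM in controls 55 and 69. Meis3, a paralog of Meis1, rose by 2.34 ± 0.48 but did not pass without knockout 63 (adjusted p of 0.0953), and Meis2 had no reads in any library. The TALE genes Tgif1 and Pknox1 fell by 1.52 ± 0.18 and 0.65 ± 0.12, and Pknox1 did not pass without either knockout (0.132 and 0.153).

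Of 11 tested relatives and partners of SOX, MYB and MEF2 factors, 3 fell and 8 did not pass, with a median of -0.54. The shares over all tested genes were 10.9% lower and 11.3% higher. Fewer were lower with either knockout left out, and more with either control left out. The number lower was 5 with DESeq2 and with sex as a block. These settings called 29.3% and 32% of all tested genes in either direction, against 22.2% in the main fit. The class IIa deacetylase genes Hdac7 and Hdac5, whose products bind MEF2 factors, and the paralog Mef2d had log2 fold changes of -1.29 ± 0.25, -0.70 ± 0.15 and -0.67 ± 0.15. None of these passed without knockout 63 (adjusted p of 0.0905, 0.088 and 0.172) or on the authors' values (0.0606, 0.0798 and 0.0764), and Hdac5 and Mef2d did not without knockout 51 (0.173 and 0.135). Of 15 tested stem cell regulator genes, 4 rose and 2 fell, with a median of 0.15. More were lower without control 55. With DESeq2 4 were lower, where 29.3% of all tested genes were called in either direction. On the authors' values 2 were higher and 1 lower, where 13.1% of all genes were called. Egr1, an immediate early factor gene, was at 16.1 and 21 CPM in knockouts 51 and 63, against 179 and 190.3 CPM in controls 55 and 69. Runx3 and the myeloid factor gene Cebpa rose by 1.53 ± 0.22 and 1.95 ± 0.31. Runx2 rose by 4.02 ± 0.79, at 721 and 1240.0 CPM in the knockouts, against 99.3 and 21.2 CPM in the controls, and the fitted value was 5.57 without control 55 and 3.3 without control 69. Besides Lmo4, Hdac7, Hdac5 and Mef2d, the named list genes that did not pass by limma on the authors' normalized values were Runx2 (adjusted p of 0.0531), Ets1 (0.0537), Dok2 (0.0598), Pknox1 (0.0693) and Spi1 (0.0865).

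Marker genes of other cell types also moved with genotype. The marker counts here and below stand beside 11.3% higher and 10.9% lower over all tested genes. Dendritic cell markers summed to 7539.6 and 9897 CPM in knockouts 51 and 63, against 1659 and 864 CPM in controls 55 and 69, with 11 of 12 higher. Natural killer cell markers summed to 948 and 232 CPM in the knockouts, against 37.2 and 30.9 CPM in the controls (6 of 10 higher). Most of the sum in knockout 63 was Klrd1, at 114 and 155 CPM in knockouts 51 and 63, against 13 and 3.68 CPM. All other genes of this list were higher in knockout 51 than in knockout 63. Gzma, for 1, was at 231 and 14.7 CPM, against 2.9 and 1.24 CPM. Klrd1 and Gzma were named after their values were seen. Neutrophil and myeloid markers summed to 212 and 52.2 CPM in the knockouts, against 4706 and 3675 CPM in the controls, with all 10 lower. Pro-B markers were lower for 8 of 12 genes and markers of later B cells for 8 of 10, and their part in the differences of Myb, Sox4, Cd93, Cd34 and Lmo2 was not tested.

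Markers of mast cells and basophils summed to 4.9 and 3.25 CPM in knockouts 51 and 63, against 44.0 and 43.2 CPM in controls 55 and 69. Of 8 tested, 5 were lower (Prss34, Mcpt8, Ms4a2, Fcer1a and Hdc) and 1 was higher (Cma1), all named after their values were seen. The mast cell protease genes Tpsb2, Tpsab1 and Mcpt4, and Mrgprb2, had no reads in any library. Endothelial markers summed to 488 and 478 CPM in the knockouts, against 254 and 268 CPM in the controls, with 2 of 7 tested higher (Kdr and Cdh5, named after their values were seen) and 1 lower. Among these, Sox17 had no reads in any library, Tie1 had none in the knockouts, and Tek was at 0.0495 and 0.0664 CPM in the knockouts, against 0.122 and 0.15 CPM in the controls. Erythroid markers summed to 68.0 and 41.9 CPM in the knockouts, against 163 and 171 CPM in the controls, with 7 of 10 lower. Megakaryocyte markers summed to 80.2 and 92.7 CPM in the knockouts, against 38.1 and 21.3 CPM in the controls (1 of 5 tested higher and 1 lower). Most of that sum was Itgb3, the 1 higher, at 78 and 90.8 CPM against 31.7 and 12.6 CPM. The 1 lower was Itga2b, and both were named after their values were seen. T cell markers summed to 303 and 177 CPM in the knockouts, against 61.9 and 95.1 CPM in the controls (3 of 9 tested higher). The largest part in each library was Lck, at 126 and 83.7 CPM against 41.8 and 61.5 CPM. Cd3d was at 14.9 and 1.16 CPM in knockouts 51 and 63, against 0.642 and 0.564 CPM. Cd3e and Cd3g were likewise higher in knockout 51 than in knockout 63, whereas Cd28, Cd5 and Themis were higher in knockout 63. These genes were named after their values were seen. Between the controls, Kit and Erg differed most of the members. Later B cell markers summed to 2476 CPM in control 55 and 976 CPM in control 69. Dendritic markers summed to 1659 and 864 CPM in controls 55 and 69, and neutrophil and myeloid markers to 4706 and 3675 CPM. Pro-B markers went the other way, at 8430.4 and 10372 CPM. The part of these differences in Kit and Erg was not tested.

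**Figure D4:**
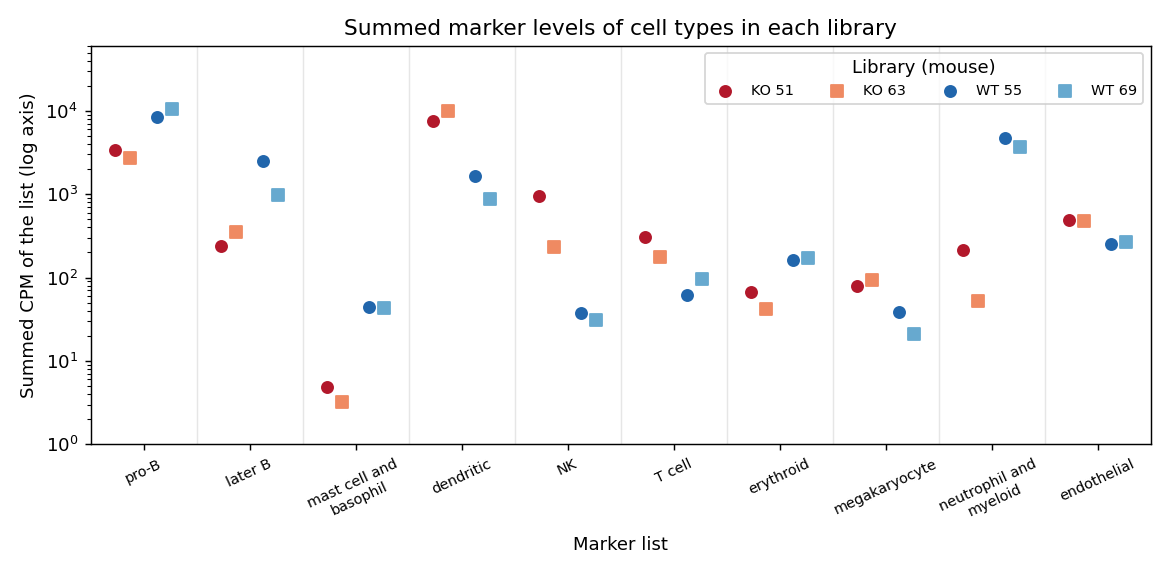
Summed CPM of each cell type's marker list in each library, on a log axis. Red points are knockout mice and blue points control mice. Dendritic and natural killer lists lie higher in both knockouts, and the pro-B, later B, mast cell and basophil, erythroid and neutrophil lists lie lower. Most of the natural killer sum of knockout 63 is Klrd1, and most of each megakaryocyte sum is Itgb3.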

How the data were processed

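RNA from sorted pro-B cells of 4 mice was sequenced. Per the submitters' processing notes, STAR 2.7.4a, SAMtools 1.10, featureCounts, Subread 2.0.0, deepTools 3.3.2 and DESeq2 were used with GRCm38 (mm10). The annotation and strand setting were not given in the sources used here. The authors deposited raw counts for 24411 symbols, and a table of 13021 rows with normalized signal (the count times 1 factor per library), used in 1 alternative.

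The deposited counts were tested with edgeR 4.0.16 (R 4.3.3): filterByExpr (minimum count 10, total 15), TMM, and the quasi-likelihood F test over all 4 libraries without covariates, with Benjamini-Hochberg adjustment over 13507 genes and a threshold of 0.05. The standard error is the log2 fold change over the square root of F. Alternatives used DESeq2 1.42.0, limma 3.58.1, other scalings and filters, each library left out (a lone library is assumed to vary like the others) and sex as a block. On simulated data for knockout over control (13333 genes tested), recovery was 93.5% for 4-fold changes, 17.1% for 2-fold and 1.47% for 1.5-fold. The simulation gave every gene the common dispersion of 0.063 and changed 62 genes by 4-fold, 70 by 2-fold and 68 by 1.5-fold. In the real data 22.2% of genes were called, so recovery there can differ from these rates. A count of 3 in a library is 0.0743 to 0.113 CPM, and with no molecular identifiers described such floors cover counting error only. Replicates differed beyond sampling noise (mean chi-square per gene 64.5 in knockouts and 89.3 in controls).

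Members and lists were chosen with earlier results of these data known. Named were all members, the called genes of each pathway list (at most 4, by lowest adjusted p) and the 2 nearest profiles of each member. A gene that this rule names is not reported here. Coordinates are from GENCODE M21 on GRCm38.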

Additional observations from a re-analysis of the deposited data

How the results depend on the processing

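With 2 mice a genotype, single libraries set much of the precision. Of the 12 alternatives, those that kept all libraries called 2 members higher and 3 or 4 lower. Fewer were called higher in edgeR with either knockout left out, where no other tool was run. Without knockouts 51 and 63 in turn, the log2 fold change was 2.33 and 1.83 for Cd34 and 0.79 and 0.81 for Lmo2. With 1 library left out, members called ranged from 0 to 2 higher and from 3 to 4 lower, all genes called from 747 to 1649 higher and from 530 to 1580 lower, and list genes from 16 to 31 higher and from 12 to 26 lower. With all libraries, 1524 genes were higher and 1468 lower. With limma on the authors' normalized values these were 894 and 804, and list genes lower were 12 in place of 25. For these counts the cause was not tested, except that leaving out a mouse leaves fewer samples. With 1 library left out, log2 fold changes ranged from -0.37 to 1.19 for Kit, from -0.09 to 0.46 for Mef2c and from -0.21 to 0.26 for Meis1. The log2 fold change of Kit was -0.37 without knockout 51 and -0.30 without control 55, and that of Mef2c -0.09 without knockout 63. That of Meis1, -0.01 with all libraries, was 0.01 with DESeq2 size factors, the stricter filter, DESeq2 and sex as a block, 0.02 on the authors' values, 0.03 without a filter and with limma-voom, 0.04 without knockout 63 and 0.26 without control 69. The genotypes share no mouse numbers, so the labels pair no mice. Each genotype has 1 female and 1 male, read from the data, and with sex as a block 2137 genes were higher and 2186 lower, and Erg passed.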
